A study of Mus musculus with 6 samples.

Results

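Glycolysis, gluconeogenesis and the response to low oxygen were examined in mouse bronchial smooth muscle cells (BSMCs) through a set of 37 genes. The set holds oxygen-sensing genes, fructose bisphosphatases, glycolytic enzymes with their regulators, genes of lactate and pyruvate handling, and other genes known to respond to hypoxia. A gene was a member if its symbol was in the set and a probe set of the array carried that symbol, which gave 33 of the 37 genes out of 20239 probe sets with 1 gene symbol. Gapdh, Pgam1, Gpi1 and Eno1 were not analysed here. Egln3 and Fbp1 entered the set because of their difference between these same samples, so their differences are described without a test, and the other 31 members were set beside them.

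BSMCs of 3 OVA sensitized samples and 3 PBS sensitized control samples were each hybridised to an Affymetrix array that covers whole transcripts of mouse genes, to find mRNA differences in a model of acute allergic airway inflammation. Adult C57BL/6J mice of both groups carried a green reporter driven by a rat α-smooth muscle actin promoter (SMA-GFP) and a red reporter driven by the NG2 promoter (NG2-DsRed), so that bronchial smooth muscle was green only, and cells that also carried CD45 or CD31 were sorted out. Mice of the OVA group were injected with 50 µg of OVA, a chicken egg protein used as an allergen, on days 0 and 7, control mice were injected with PBS, and both groups inhaled nebulized OVA on 5 days between day 14 and day 18 before cell isolation on day 19. According to the Methods each RNA was pooled from several mice, whereas the sample labels name single animals, microdissected tissue and OVA sensitization in every sample, and the groups here follow the sample titles. Nothing in the labels shows that the samples of a group were prepared independently, so p-values measure the spread between these samples, which may be partly technical.

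Levels are log2 values after RMA, the authors' background correction, normalization and summary over all arrays, so that a difference of 1 is a doubling. One OVA array, OVA 2, stood apart from the other 5. Its lower quartile was 5.72 and its upper quartile 7.96, against lower quartiles of 5.27 to 5.37 and upper quartiles of 8.25 to 8.30 on the other arrays, so its levels were compressed toward the middle, and its mean correlation with the others was 0.959, against 0.980 to 0.986. The Methods state that 1 asthma array was excluded as an outlier without naming it. The main comparison therefore set OVA 1 and OVA 3 against PBS 1, PBS 2 and PBS 3, and OVA 2 and the difference over all 6 arrays are given beside it. Acta2, the gene of the actin whose promoter drives the green reporter, had levels of 12.44 and 12.52 on OVA 1 and OVA 3, 12.09 on OVA 2, and 12.39, 11.87 and 12.13 on the PBS arrays, among the highest of the table, which ran from 1.91 to 13.1. Transcripts of other cell types were also present. Scgb1a1, a club cell secretoglobin, was at 11.49 and 11.68 on OVA 1 and OVA 3, 9.65 on OVA 2, and 11.76, 11.75 and 11.59 on the PBS arrays. Sftpc, a surfactant protein of alveolar type 2 cells, lay between 11.34 and 11.53 on every array but OVA 2, where it was 9.72.

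Cells sense oxygen through the EGLN enzymes, prolyl hydroxylases that use oxygen to mark the α subunits of the hypoxia-inducible factors (HIFs) for destruction. When oxygen is scarce the HIFs escape this mark, bind the short hypoxia response element near their targets and raise the transcription of glucose transporters, glycolytic enzymes, angiogenic factors and, as a feedback, of some EGLN genes, of which Egln3 is a well known example. Glycolysis splits glucose into pyruvate. Gluconeogenesis runs the other way around its irreversible steps, and fructose bisphosphatase opposes phosphofructokinase at the step that commits sugar to glycolysis. Smooth muscle draws a large share of its energy from glycolysis and releases lactate even where oxygen is ample.

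The sequences before the start sites of Egln3 and Fbp1 are shown because these genes differed most within the set, those of Egln1 and Fbp2 because they are their paralogs, and that of Ankrd37 because it had the smallest p of the remaining members. Each is the 250 bases before the start in the RefSeq annotation of the GRCm38.p6 build, 5′ to 3′ on the strand of the gene, with the core of the hypoxia response element (ACGTG or GCGTG, or CACGT or CACGC where it lies on the other strand) in capitals. Overlapping matches were counted separately.
Egln3, chr12:54203875-54204124, minus strand: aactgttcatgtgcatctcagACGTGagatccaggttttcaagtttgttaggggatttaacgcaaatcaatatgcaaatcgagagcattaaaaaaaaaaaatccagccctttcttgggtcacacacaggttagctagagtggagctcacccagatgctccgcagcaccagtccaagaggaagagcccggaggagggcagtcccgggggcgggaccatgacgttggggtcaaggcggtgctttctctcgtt
Egln1, chr8:124949255-124949504, minus strand: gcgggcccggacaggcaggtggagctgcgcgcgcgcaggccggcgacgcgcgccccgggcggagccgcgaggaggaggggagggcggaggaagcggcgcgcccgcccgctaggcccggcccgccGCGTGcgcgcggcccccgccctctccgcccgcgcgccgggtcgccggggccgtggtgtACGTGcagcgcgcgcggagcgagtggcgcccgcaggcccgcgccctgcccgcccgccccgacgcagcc
Fbp1, chr13:62888283-62888532, minus strand: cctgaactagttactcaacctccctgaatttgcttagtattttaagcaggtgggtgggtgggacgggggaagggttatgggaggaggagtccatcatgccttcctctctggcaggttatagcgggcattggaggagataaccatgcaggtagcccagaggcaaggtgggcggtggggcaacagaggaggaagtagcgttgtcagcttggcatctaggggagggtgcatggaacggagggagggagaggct
Fbp2, chr13:62858401-62858650, minus strand: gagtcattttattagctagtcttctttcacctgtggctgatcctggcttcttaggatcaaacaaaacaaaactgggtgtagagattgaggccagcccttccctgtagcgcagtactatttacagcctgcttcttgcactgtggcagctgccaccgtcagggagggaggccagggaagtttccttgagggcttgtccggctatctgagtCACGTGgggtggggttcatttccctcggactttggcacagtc
Ankrd37, chr8:45999851-46000100, minus strand: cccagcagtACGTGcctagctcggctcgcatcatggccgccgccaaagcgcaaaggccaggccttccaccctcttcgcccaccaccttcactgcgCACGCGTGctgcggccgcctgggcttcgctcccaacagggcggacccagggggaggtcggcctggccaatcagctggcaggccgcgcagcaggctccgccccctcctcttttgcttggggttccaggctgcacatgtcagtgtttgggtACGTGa

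The Egln3 window held 1 match, 229 bases before the start, and the Fbp1 window held 0. The Egln1 window held 2 matches, with 86.0% G and C, Fbp2 held 2 overlapping matches and Ankrd37 held 4, of which 2 overlapped. RefSeq gave 46 such windows for 31 of the 33 measured members, and 35 of them (76.1%) held at least 1 match, against 12679 (38.6%) of all 32851 windows of 27025 genes. The members' windows were also richer in G and C, with a median of 60.0% against 52.4% over all windows, and both motifs hold a CG pair. Of the 31 members with a window, 28 had a match in at least 1 of their windows, and Fbp1, Tpi1 and Eno2 had none. A match describes letters only and was not tested for binding.

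Among the oxygen-sensing genes, Egln3 stood apart from its paralogs. Egln3 mRNA was more abundant on OVA 1 and OVA 3 than on any PBS array, by 3.53-fold between the means, while the mRNAs of Egln1 and Egln2 and of the HIF subunits differed by much less. In these samples a change in the share of cells that carry a transcript and a change in its amount per cell cannot be told apart. Egln3 encodes the EGLN enzyme that the HIFs themselves induce in many cells. Its level was 9.37 on OVA 1, 10.07 on OVA 3 and 8.17 on OVA 2, against 8.12, 7.55 and 8.04 on PBS 1, PBS 2 and PBS 3. OVA 1 and OVA 3 were above every PBS array by at least 1.25, and OVA 2 was above the highest PBS array by only 0.05. The mean was 9.72 ± 0.50 (SD, n = 2) on the OVA arrays and 7.90 ± 0.31 (SD, n = 3) on the PBS arrays, a difference of 1.82 (SE 0.256) or 3.53-fold, the 20th highest of the 20239. Over all 6 arrays the difference was 1.30 (SE 0.446).

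**Figure D1:**
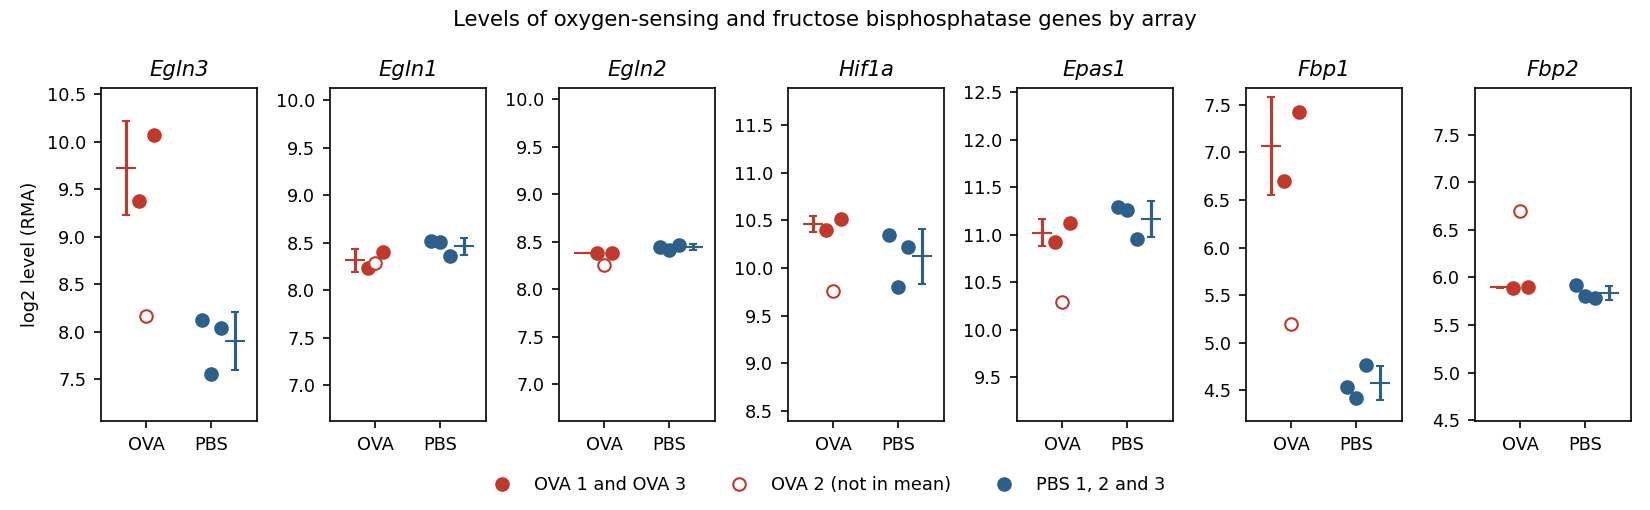
Log2 level (RMA, vertical axes, each spanning the same number of log2 units) of 5 oxygen-sensing genes and the 2 fructose bisphosphatases on each array, with OVA left of PBS; filled points are the arrays of the main comparison, the open point is OVA 2, and bars are mean and SD without OVA 2. Egln3 and Fbp1 were higher on OVA 1 and OVA 3 than on every PBS array, by at least 1.25 and 1.93, whereas the differences of their paralogs were −0.15 for Egln1, −0.06 for Egln2 and 0.06 for Fbp2.

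Egln1, the main hydroxylase that limits HIF in most cells, was at 8.23 and 8.40 on OVA 1 and OVA 3, with 8.29 on OVA 2, against 8.52, 8.51 and 8.36 on the PBS arrays. The groups overlapped, and the difference of −0.15 (SE 0.100, limma unadjusted p = 0.181, FDR = 0.646) was small beside that of Egln3. Egln2, a further hydroxylase of the family, was at 8.38 on both OVA 1 and OVA 3 and 8.26 on OVA 2, against 8.45, 8.41 and 8.47 on the PBS arrays. All 3 OVA arrays were below every PBS array, but by so little that the difference of −0.06 (SE 0.0783) gave an unadjusted p of 0.483 (limma, FDR = 0.818). Hif1a, the HIF α subunit found in nearly all cells, was at 10.40 and 10.52 on OVA 1 and OVA 3, against 10.35, 9.80 and 10.22 on the PBS arrays. OVA 2, at 9.76, was instead below every PBS array, so that a difference of 0.34 (SE 0.170, limma unadjusted p = 0.0935, FDR = 0.577) became 0.10 over all 6 arrays. Epas1, the α subunit HIF-2α that is abundant in lung and endothelium, was at 10.92 and 11.12 on OVA 1 and OVA 3, with 10.29 on OVA 2, against 11.29, 11.26 and 10.95 on the PBS arrays, a difference of −0.15 (SE 0.135, limma unadjusted p = 0.314, FDR = 0.732). Because OVA 2 was below every PBS array, the difference over all 6 arrays was −0.39. Endothelial markers were also low on OVA 2. The mean level of 16 of them was 8.45 and 8.49 on OVA 1 and OVA 3, with 7.22 on OVA 2, against 8.48, 9.24 and 8.54 on the PBS arrays. Their part in the level of Epas1, and that of the compressed scale of OVA 2, was not tested.

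The fructose bisphosphatases differed in the same uneven manner. Fbp1, the form known from gluconeogenesis in liver and kidney, had the largest difference of the set. Its level was 6.70 on OVA 1, 7.43 on OVA 3 and 5.20 on OVA 2, against 4.53, 4.42 and 4.77 on the PBS arrays. All 3 OVA arrays were above every PBS array, OVA 1 and OVA 3 by at least 1.93 and OVA 2 by 0.43. The mean was 7.06 ± 0.52 (SD, n = 2) on the OVA arrays and 4.57 ± 0.18 (SD, n = 3) on the PBS arrays, a difference of 2.49 (SE 0.226) or 5.61-fold, the 6th highest of all probe sets, and over all 6 arrays it was 1.87 (SE 0.504). On all 3 PBS arrays Fbp1 lay under the lower quartile of the array, where RMA values approach the background, and the table gives no detection call. OVA 2, with its compressed scale, exceeded every PBS array for 9240 genes, 45.7% of those tested, so a level above the PBS arrays on OVA 2 was common among all genes. Fbp2, the form of skeletal muscle, was at 5.89 and 5.90 on OVA 1 and OVA 3, against 5.92, 5.81 and 5.78 on the PBS arrays. These overlapped, with a difference of 0.06 (SE 0.0857, limma unadjusted p = 0.526, FDR = 0.838), and only OVA 2, at 6.70, was above the PBS arrays.

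Markers of other cell types also differed between the arrays on which Egln3 and Fbp1 differed. All 15 measured markers of leukocytes were higher in the mean of OVA 1 and OVA 3 than in the PBS mean, with a median difference of 0.66. Their mean level was 8.21 and 8.52 on OVA 1 and OVA 3, with 6.71 on OVA 2, against 7.16, 8.08 and 8.03 on the PBS arrays. Their defining gene Ptprc, which encodes CD45, was at 8.09 and 8.31 on OVA 1 and OVA 3, with 6.18 on OVA 2, against 6.84, 8.10 and 7.77 on the PBS arrays. OVA 1 and OVA 3 overlapped the PBS arrays in Ptprc, which was lowest on OVA 2. Of 15 macrophage markers 11 were higher, with mean levels of 7.69 and 7.87 on OVA 1 and OVA 3, with 6.79 on OVA 2, against 6.90, 7.48 and 7.54 on the PBS arrays. The alveolar macrophage receptor Marco was low throughout, at 5.67 and 5.81 on OVA 1 and OVA 3, with 6.37 on OVA 2, against 5.72, 5.87 and 5.99 on the PBS arrays. Of 9 eosinophil markers 6 were higher and 3 lower, with a median difference of 0.09, and their mean level was above every PBS array on all 3 OVA arrays, with 5.86 (OVA 1), 5.90 (OVA 3) and 5.73 (OVA 2), against 5.18, 5.22 and 5.55 on the PBS arrays. This mean includes Rnase2a, whose difference of 3.94 was the highest of all probe sets. On OVA 2 the mean was near the lower quartile of the array (5.72). The compressed scale of OVA 2 went with 45.7% of all probe sets above every PBS array. Siglecf, also a macrophage marker, was at 6.94 and 6.91 on OVA 1 and OVA 3, against 6.73, 6.89 and 6.96 on the PBS arrays. These overlapped, and OVA 2 was at 7.25. Smooth muscle markers were higher for 11 of 12 genes, with mean levels of 10.78 and 11.09 on OVA 1 and OVA 3, with 10.05 on OVA 2, against 10.83, 9.74 and 10.39 on the PBS arrays. Markers of ciliated epithelium were lower for all 13 measured genes, with mean levels of 6.82 and 6.24 on OVA 1 and OVA 3, with 6.26 on OVA 2, against 6.92, 6.95 and 7.34 on the PBS arrays. Most or all markers were lower for epithelium in general (10 of 10), endothelium (14 of 16) and club and secretory cells (11 of 16). Those of alveolar type 2 cells (8 of 9) and neutrophils (10 of 13) were mostly higher. Over all probe sets 8848 were higher and 11391 (56.3%) lower. Leukocyte, macrophage and smooth muscle markers gave 0 at an unadjusted p under 0.01 (limma), and the other lists named here 0 to 3. Of all probe sets 1.97% passed. The part of these cells in the levels of Egln3 and Fbp1 was not tested.

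**Figure D2:**
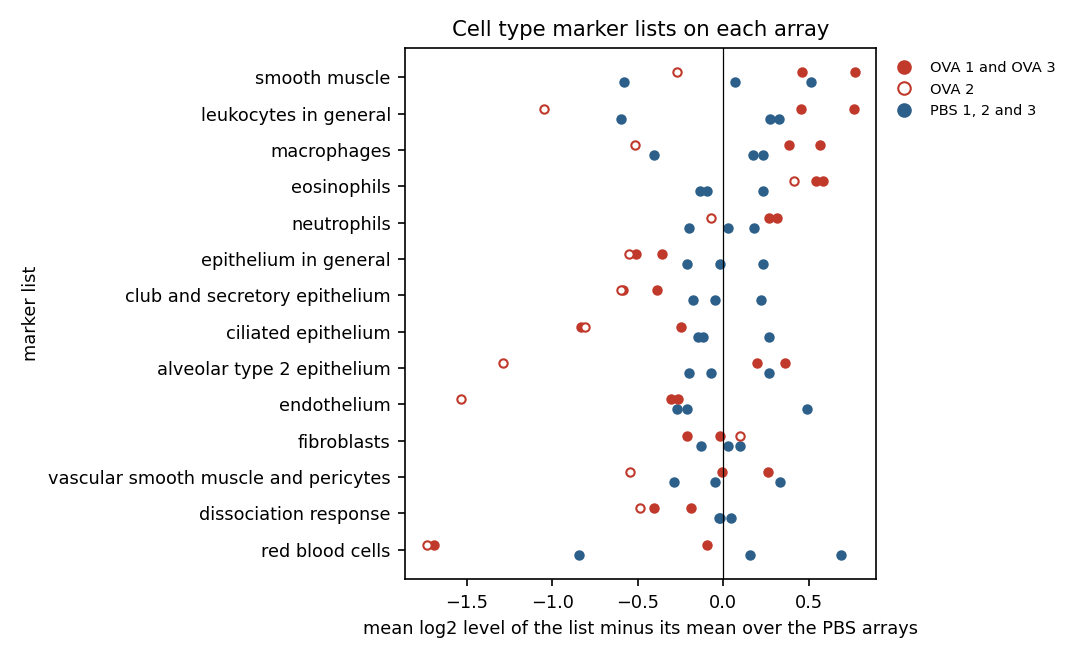
Mean log2 level of each marker list on each array, shown as the difference from the mean of the 3 PBS arrays (horizontal axis, log2 units); red points are OVA 1 and OVA 3, open points OVA 2 and blue points the PBS arrays. Leukocyte markers were at 8.21 and 8.52 on OVA 1 and OVA 3, with 6.71 on OVA 2. The mean of the eosinophil markers, of which 6 were higher and 3 lower, was above every PBS array on all 3 OVA arrays. That mean includes Rnase2a, with a difference of 3.94. OVA 2 has a compressed scale, and 45.7% of all probe sets were above every PBS array on it.

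The other members lay close to the PBS arrays, and none passed the test. Of these 31 members, 12 were higher and 19 lower in the OVA group by the sign of the difference, however small, with a median difference of −0.04 and a range of −0.49 for Hk2 to 0.34 for Hif1a. Over all probe sets the median was −0.02, with 8848 higher and 11391 (56.3%) lower. None of the 31 passed an FDR of 0.25, a threshold that 8 of all probe sets (0.0395%) passed, and the lowest FDR among them was 0.480. The same limma fit gave Egln3 an FDR of 0.413, which also misses the threshold, and Fbp1 an FDR of 0.194. Both were chosen on this difference, so neither value is a test. At an unadjusted p under 0.01 the count was 0 of 31, against 1.97% of all probe sets, and under 0.05 it was 1, Ankrd37, which was lower, against 9.31% of all probe sets in either direction and 4.78% lower. OVA 1 and OVA 3 were both above every PBS array for 4 of the 31 (Hif1a, Hk1, Tpi1 and Pkm), against 11.9% of all probe sets, and both below for 3 (Egln2, Vegfa and Ankrd37), against 16.8%. With OVA 2 added, 1 of the 31 (Pkm) stayed above every PBS array, against 4.16% of all probe sets, and 2 (Egln2 and Vegfa) stayed below, against 7.83%. On OVA 2, 6 of the 31 were above every PBS array and 23 below, where all probe sets gave 45.7% above and 37.7% below. With OVA 2 included the median of the 31 was −0.10, with 7 higher and 24 lower, 0 had an unadjusted p under 0.05 or under 0.01 (4.54% and 0.860% of all probe sets did) and the lowest FDR was 0.892.

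**Figure D3:**
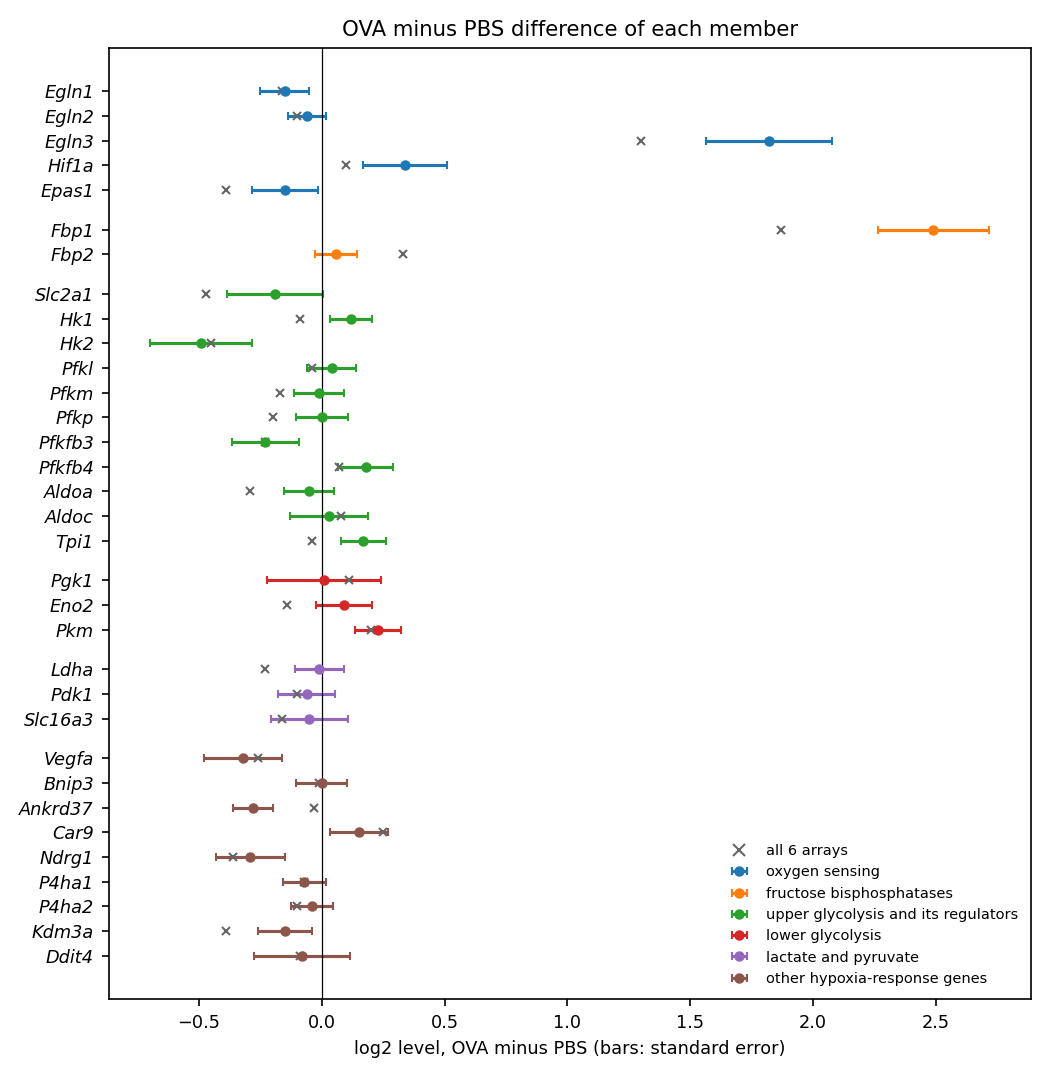
Difference in log2 level, OVA minus PBS (horizontal axis), of the 33 measured members by role; points are the comparison of OVA 1 and OVA 3 with the PBS arrays, bars its standard error, and crosses the difference over all 6 arrays. Egln3 (1.82) and Fbp1 (2.49), which were chosen on this difference, lie far to the right, and the other members lie between −0.49 and 0.34.

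Glycolytic genes were divided between both directions, and the 17 measured members of the pathway from glucose uptake to lactate export had a median difference of 0.00, with 9 higher and 8 lower. Their mean level was 8.64 on OVA 1, 8.72 on OVA 3 and 8.34 on OVA 2, against 8.75, 8.62 and 8.71 on the PBS arrays, so the groups overlapped without OVA 2. OVA 2, with its compressed scale, was below every PBS array for 14 of the 17, and with it the median was −0.14. Many glycolytic genes have near-identical copies or processed pseudogenes in the mouse genome, so signals of their probe sets may include such copies.

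In the upper part of glycolysis, which turns glucose into triose phosphates, 6 of 11 genes were higher and 5 lower, with a median of 0.00. Hk2, the inducible hexokinase that traps glucose in the cell, was at 8.29 and 7.71 on OVA 1 and OVA 3, with 8.13 on OVA 2, against 8.55, 8.24 and 8.69 on the PBS arrays. OVA 1 lay within the PBS range, and the difference of −0.49 (SE 0.207) had an unadjusted p of 0.0538 (limma, FDR = 0.536). It was −0.78 without OVA 1 and −0.20 without OVA 3. Tpi1, which interconverts the triose phosphates, was at 10.51 and 10.71 on OVA 1 and OVA 3, above a narrow PBS range of 10.45, 10.43 and 10.44. OVA 2 was below that range at 9.97, and the difference of 0.17 (SE 0.0921, limma unadjusted p = 0.110, FDR = 0.586) became −0.04 over all 6 arrays. Pfkfb3 and Pfkfb4 make and break down fructose bisphosphate's regulatory isomer, which drives phosphofructokinase and inhibits fructose bisphosphatase. Pfkfb3 was at 8.96 and 8.57 on OVA 1 and OVA 3, with 8.76 on OVA 2, against 8.97, 9.10 and 8.92 on the PBS arrays, a difference of −0.23 (SE 0.137, limma unadjusted p = 0.145, FDR = 0.617). Pfkfb4 was at 7.39 and 7.65 on OVA 1 and OVA 3, with 7.19 on OVA 2, against 7.30, 7.44 and 7.28 on the PBS arrays, a difference of 0.18 (SE 0.112, limma unadjusted p = 0.156, FDR = 0.626). Both overlapped between the groups.

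The phosphofructokinase subunits, whose enzyme fructose bisphosphatase opposes, gave differences of 0.04 for Pfkl, the liver type, −0.01 for Pfkm, the muscle type, and 0.00 for Pfkp, the platelet type. The glucose transporter Slc2a1, a classical HIF target, was at 9.99 and 10.02 on OVA 1 and OVA 3, with 9.15 on OVA 2, against 10.48, 9.81 and 10.29 on the PBS arrays, a difference of −0.19 with overlap of OVA 1 and OVA 3 with the PBS arrays. The hexokinase Hk1 differed by 0.12 without OVA 2 and by −0.09 with it. The aldolases Aldoa, the muscle form, and Aldoc, a form known from brain, differed by −0.05 and 0.03.

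In the lower part of glycolysis, where ATP and pyruvate are made, all 3 measured genes were higher by a small amount, with a median of 0.09. Pkm, the pyruvate kinase of muscle and proliferating cells, was at 9.72 and 9.90 on OVA 1 and OVA 3, with 9.74 on OVA 2, against 9.58, 9.54 and 9.65 on the PBS arrays. It was the only one of the 31 members for which all 3 OVA arrays were above every PBS array, and its difference of 0.23 (SE 0.0945) had an unadjusted p of 0.0519 (limma, FDR = 0.535). Eno2, the enolase known from neurons, was at 8.82 and 8.77 on OVA 1 and OVA 3, with 8.10 on OVA 2, against 8.78, 8.52 and 8.81 on the PBS arrays. Its difference of 0.09 (SE 0.113) became −0.14 with OVA 2. Pgk1, the phosphoglycerate kinase, spread widely within the OVA group, at 7.08 on OVA 1, 7.87 on OVA 3 and 7.76 on OVA 2, against 7.63, 7.35 and 7.41 on the PBS arrays, and differed by 0.01 (SE 0.233).

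The 3 genes of lactate and pyruvate handling were lower by 0.06 or less (differences of −0.01 to −0.06). Ldha, the lactate dehydrogenase subunit that favours lactate, was at 10.78 and 10.98 on OVA 1 and OVA 3, with 10.23 on OVA 2, against 10.86, 10.83 and 10.97 on the PBS arrays, a difference of −0.01 (SE 0.0996). Pdk1, a pyruvate dehydrogenase kinase known from hypoxia, was at 6.16 and 5.87 on OVA 1 and OVA 3, with 5.92 on OVA 2, against 6.08, 6.16 and 5.99 on the PBS arrays, a difference of −0.06 (SE 0.116). Slc16a3, the lactate exporter MCT4, was at 8.49 and 8.46 on OVA 1 and OVA 3, with 8.13 on OVA 2, against 8.61, 8.23 and 8.74 on the PBS arrays, a difference of −0.05 (SE 0.157). In each of these genes OVA 1 and OVA 3 overlapped the PBS arrays.

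**Figure D4:**
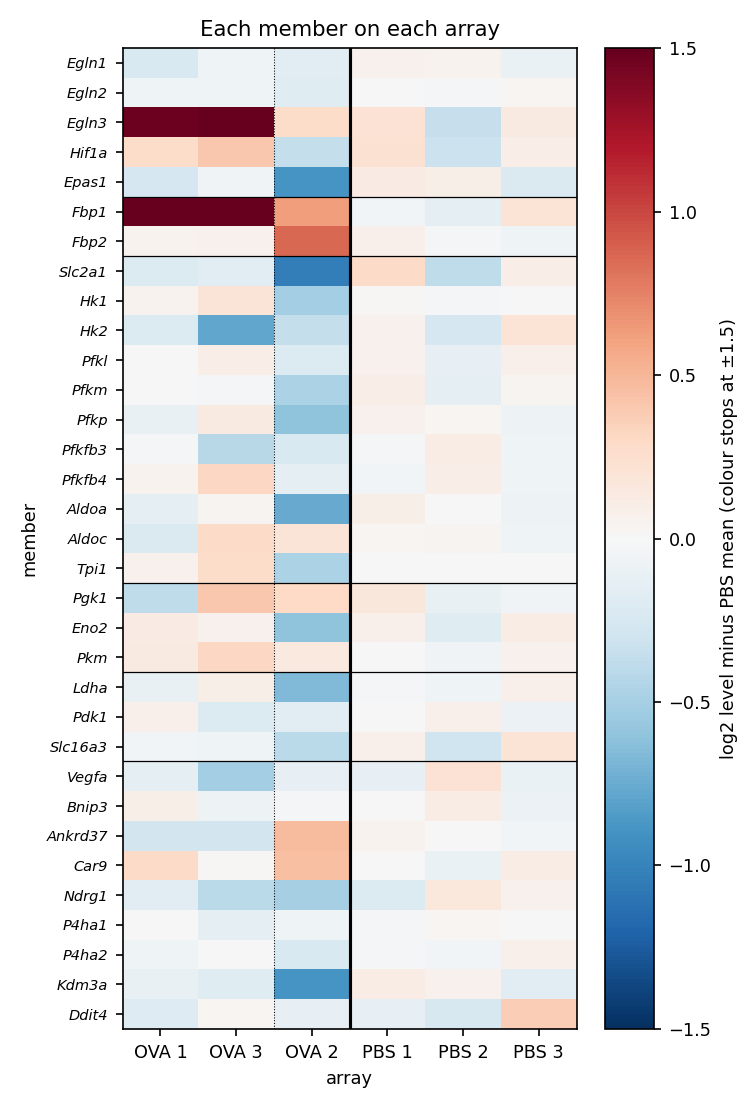
Log2 level of each measured member on each array minus its mean over the PBS arrays (colour, in log2 units, stopping at 1.5), with the OVA arrays left of the PBS arrays and members ordered by role. Egln3 and Fbp1 had the highest values on OVA 1 and OVA 3. OVA 2, with its compressed scale, was below every PBS array for 23 of the other 31 members.

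The remaining hypoxia-response genes, most of them HIF targets, were lower more often than higher. Of 9 genes 8 were lower and 1 higher by the sign of the difference, with a median of −0.08. The 8 include Bnip3, a mitophagy receptor whose difference rounds to 0.00 (limma unadjusted p = 0.979). Of all probe sets 11391 (56.3%) were also lower. Their mean level was 7.92 on OVA 1, 7.81 on OVA 3 and 7.87 on OVA 2, against 7.94 to 8.01 on the PBS arrays. Every OVA array was thus below every PBS array, narrowly so for OVA 1 and PBS 1, and OVA 2 has a compressed scale. Of single probe sets 7.83% had all 3 OVA arrays below every PBS array. No such share was computed for means of 9 genes. Ankrd37, an ankyrin repeat gene and HIF target, was at 6.20 and 6.19 on OVA 1 and OVA 3, against 6.52, 6.46 and 6.43 on the PBS arrays, a difference of −0.28 (SE 0.0804). Its unadjusted p of 0.0130 was the smallest of the 31 members (limma, FDR = 0.480). OVA 2, at 6.94, was above every PBS array, and over all 6 arrays the difference was −0.03. Ndrg1, a gene induced by hypoxia and differentiation, was at 10.12 and 9.87 on OVA 1 and OVA 3, with 9.78 on OVA 2, against 10.08, 10.44 and 10.34 on the PBS arrays, a difference of −0.29 (SE 0.140, limma unadjusted p = 0.0810, FDR = 0.566). Vegfa, the angiogenic growth factor, was at 9.43 and 9.06 on OVA 1 and OVA 3, with 9.45 on OVA 2, against 9.45, 9.79 and 9.47 on the PBS arrays. All 3 OVA arrays were below every PBS array, OVA 2 by less than the rounding, and the difference was −0.32 (SE 0.157, limma unadjusted p = 0.0849, FDR = 0.570). Kdm3a, a histone demethylase induced by HIF, was at 8.15 and 8.08 on OVA 1 and OVA 3, with 7.38 on OVA 2, against 8.37, 8.32 and 8.10 on the PBS arrays, a difference of −0.15 (SE 0.109, limma unadjusted p = 0.225).

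Car9, the tumour-associated carbonic anhydrase that is strongly induced by HIF in hypoxic cells, was the gene of this group that was higher, by 0.15, and it was low on every array, at 5.68 and 5.41 on OVA 1 and OVA 3, with 5.84 on OVA 2, against 5.38, 5.29 and 5.50 on the PBS arrays. The collagen prolyl hydroxylase subunits P4ha1 and P4ha2 differed by −0.07 and −0.04, and Ddit4, an inhibitor of mTOR signaling, by −0.08. All 17 measured genes of the response to tissue dissociation, most of them immediate early genes, were lower as well, with a median of −0.27. Of the 17, 5 had an unadjusted p under 0.01 (limma), against 1.97% of all probe sets. Their mean level was 10.94 and 10.72 on OVA 1 and OVA 3, with 10.64 on OVA 2, against 11.17, 11.10 and 11.11 on the PBS arrays, and their part in the levels of the hypoxia-response genes was not tested.

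To place the set in its wider pathways, 100 further genes were read from the same comparison, of which 91 were measured. Of these 47 were higher and 44 lower, with a median of 0.02, and 3, all higher, had an unadjusted p under 0.01, where 1.97% of all probe sets passed and 0.963% passed and were higher, with 0 at an FDR under 0.25 and a lowest FDR of 0.480. Under 0.05 the counts were 5 higher and 6 lower, against 4.53% and 4.78% of all probe sets. Over all 6 arrays 0 of the 91 had an unadjusted p under 0.01, 6 were under 0.05, and the lowest FDR was 0.892. All 3 were among the 29 other hypoxia-response genes, of which 11 were higher and 18 lower, with a median of −0.06. In this list 4 genes, named after their values were seen, were lower at an unadjusted p under 0.05. They were the vasoconstrictor gene Edn1 (−0.66), Adm (−0.49), which encodes the vasodilator adrenomedullin, Bnip3l (−0.41), a relative of Bnip3, and the MYC antagonist Mxi1 (−0.22). Pgf, a growth factor of the VEGF family, was at 9.77 and 10.20 on OVA 1 and OVA 3, against 9.13, 8.81 and 9.35 on the PBS arrays, a difference of 0.89 (SE 0.194, limma unadjusted p = 0.00351). OVA 2, at 8.31, was below every PBS array, and over all 6 arrays the difference was 0.33 (limma unadjusted p = 0.483). Ppp1r3c, a subunit that directs a phosphatase to glycogen, was at 8.01 and 7.67 on OVA 1 and OVA 3, with 7.66 on OVA 2, against 7.25, 7.42 and 7.25 on the PBS arrays, a difference of 0.53 (SE 0.128, limma unadjusted p = 0.00584) and of 0.47 over all 6 arrays. Tmem45a, a membrane protein gene, was at 9.30 and 9.31 on OVA 1 and OVA 3, with 9.54 on OVA 2, against 8.87, 8.89 and 9.06 on the PBS arrays, a difference of 0.36 (SE 0.0942, limma unadjusted p = 0.00789) and of 0.44 over all 6 arrays. In Ppp1r3c and Tmem45a all 3 OVA arrays were above every PBS array.

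**Figure D5:**
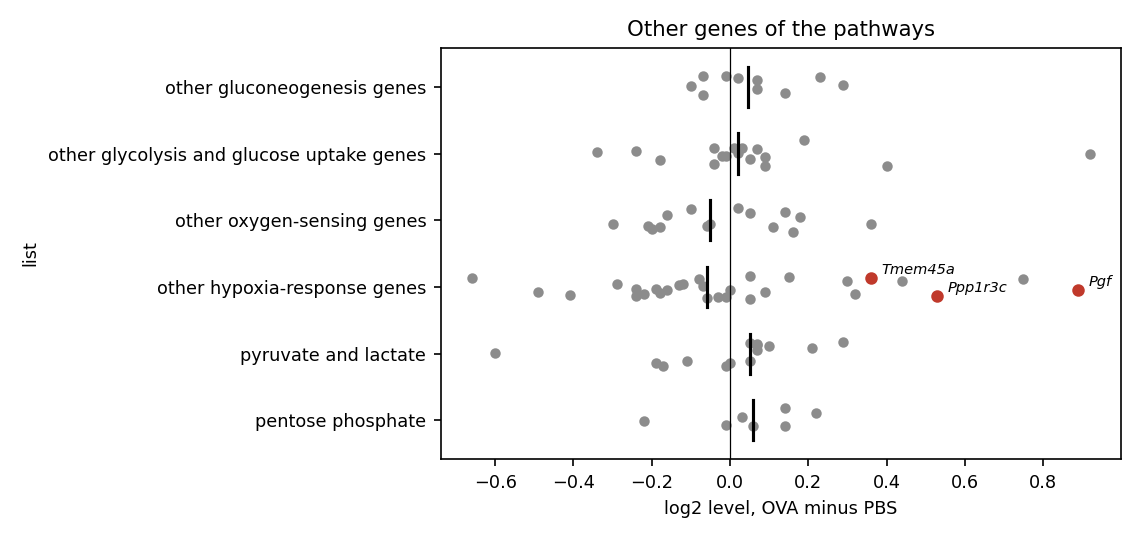
Difference in log2 level, OVA minus PBS without OVA 2 (horizontal axis), of the further genes of each pathway list; points are genes, vertical bars the medians of the lists, and red points the genes with an unadjusted p under 0.01. The medians of the lists lay between −0.06 and 0.06, and Pgf, Ppp1r3c and Tmem45a were the genes with an unadjusted p under 0.01.

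None of the other lists held a gene with an unadjusted p under 0.01. Of 10 other gluconeogenesis genes 6 were higher and 4 lower, with a median of 0.05. G6pc3, the glucose phosphatase found in most tissues, was at 9.45 and 9.81 on OVA 1 and OVA 3, with 8.57 on OVA 2, against 9.34, 9.28 and 9.38 on the PBS arrays, a difference of 0.29 (SE 0.125, limma unadjusted p = 0.0553) that became −0.06 with OVA 2. Got1 and Mdh2, enzymes of the exchange between oxaloacetate, aspartate and malate, differed by 0.23 and 0.14, and by −0.21 and −0.09 with OVA 2. Of 17 other glycolysis and glucose uptake genes 10 were higher and 7 lower, with a median of 0.02. The glucose transporter Slc2a4, named after its value was seen, had the highest difference of the 91 further genes. It was 0.92, with a limma unadjusted p of 0.101. Eno3, the muscle enolase, was at 7.86 and 8.26 on OVA 1 and OVA 3, with 7.23 on OVA 2, against 7.68, 7.62 and 7.66 on the PBS arrays, a difference of 0.40 (SE 0.129, limma unadjusted p = 0.0200) that was 0.13 with OVA 2 (limma unadjusted p = 0.627). The glucose transporter Slc2a12 was at 6.56 and 6.72 on OVA 1 and OVA 3, with 5.94 on OVA 2, against 7.09, 7.05 and 6.82 on the PBS arrays, so that all 3 OVA arrays were below every PBS array, with a difference of −0.34 (SE 0.115, limma unadjusted p = 0.0242). Pgam2, the muscle phosphoglycerate mutase, differed by 0.19.

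The 15 other oxygen-sensing genes were 7 higher and 8 lower, with a median of −0.05. Elob, a subunit of the ubiquitin ligase that removes hydroxylated HIF, differed by 0.36 (SE 0.136, limma unadjusted p = 0.0391) and by 0.03 with OVA 2. Siah1a, a ubiquitin ligase known to act on EGLN proteins, differed by −0.20, and Hif1an, the asparagine hydroxylase that blocks HIF activity, by 0.18. Of 14 further genes of pyruvate and lactate handling 8 were higher and 6 lower, with a median of 0.05. Pdk4, a pyruvate dehydrogenase kinase induced in fasting, was at 8.41 and 8.43 on OVA 1 and OVA 3, with 7.96 on OVA 2, against a PBS range of 8.61 to 9.46. All 3 OVA arrays were below every PBS array, and the difference was −0.60 (SE 0.235, limma unadjusted p = 0.0423). Pdp1, the phosphatase that opposes such kinases, differed by −0.19, and the kinase Pdk3 by 0.21. In the pentose phosphate pathway 5 of 7 genes were higher and 2 lower, with a median of 0.06. Rpia and Rpe, which convert ribulose phosphate, differed by −0.22 and 0.14, and Pgd, a dehydrogenase of the oxidative branch that makes NADPH, by 0.22.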

How the data were processed

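The authors deposited log2 values, 1 for each of 21225 probe sets on each of the 6 arrays, made with RMA (background correction, normalization across arrays and summary of the probes). The submitters' notes name RMA and the affy package without versions, whereas the paper's Methods name the oligo package and kept 1 probe set per Entrez gene. Counts here therefore need not match the paper's. No source used here gives a genome build. RNA was amplified before labelling. Precision depends on how many arrays there are, since an array has no depth. The table of probe names gave 1 gene symbol to 20239 probe sets, which were tested, several to 0 and none to 986. An older symbol was followed only where it is not the current symbol of another gene, so Eno1b was not taken for Eno1.

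Values were used as deposited. OVA 1 and OVA 3 were compared with PBS 1, PBS 2 and PBS 3 in R 4.3.3 with limma 3.58.1 (lmFit, then eBayes). The tests were two-sided, Benjamini-Hochberg adjustment covered all probe sets tested, and a gene was called at an FDR under 0.25. The test and the exclusion of 1 array follow the study's methods, and the FDR threshold is the one its results use. OVA 2 was taken as that array because it stands apart. Standard errors are those of limma. The comparison was tested on simulated data. Egln3, Fbp1 and the genes of their families were named, with the up to 4 members of each further role and the up to 3 genes of each further pathway with the smallest p. Slc2a1 and Car9 are also given per array, and Edn1, Adm, Bnip3l, Mxi1 and Slc2a4 by their difference, a choice made after their values were seen. The members and the lists were chosen with earlier results of these data known. The alternatives were all 6 arrays with and without array weights (statmod 1.5.0 loaded), leaving out each array, a level filter at the percentile 25, quantile normalization or median centring on top, an intensity trend with robust variance, and the replicate number as a block. Promoter windows are from RefSeq, and protein sequences were not used here.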

Additional observations from a re-analysis of the deposited data

How the results depend on the processing

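With 2 arrays against 3, differences near 0 have no stable sign. Over 49 of the genes named, 580 values kept their direction and their side of the threshold and 53 values of 20 genes changed sign. The values counted include both settings with the replicate number as a block, whose differences repeat those of other settings. Leaving out 1 of the 2 OVA arrays leaves a lone array that is assumed to vary like the others. Over all probe sets, the count at an unadjusted p under 0.01 was 398, with 174 over all 6 arrays, 743 with array weights (which gave OVA 2 a weight of 0.0852), and 109 (without OVA 3) to 575 when 1 array was left out. Of these 195 were higher, with 57 over all 6 arrays, 345 with weights and 65 to 350 when 1 array was left out. The count at an FDR under 0.25 was 8, with 1 over all 6 arrays, 563 with weights, 1 with the level filter, 11 with quantile normalization or median centring, and 0 (without PBS 2 or without OVA 3) to 68 (without PBS 3) when 1 array was left out, with 1 without PBS 1 and 4 without OVA 1. The other 31 members gave 0 calls at either threshold in each case with 1 array left out, and their median of −0.04 ranged from −0.06 to −0.01, with −0.10 over all 6 arrays.

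Egln3 and Fbp1 stayed higher. The Egln3 difference was 1.30 over all 6 arrays, 1.62 with weights and 1.47 to 2.17 when 1 array was left out. The Fbp1 difference was 1.87 over all 6 arrays, 2.27 with weights, 2.40 with quantile normalization and 2.12 to 2.85 when 1 array was left out, and the level filter removed Fbp1. With weights, Slc2a12 (FDR 0.247), Pgf (0.232), Ppp1r3c (0.151) and Tmem45a (0.210) passed the FDR threshold, while over all 6 arrays without weights the FDR of each was 0.892. When 1 array was left out, Hk2 ranged from −0.78 to −0.20, Pgf from 0.68 to 1.10, Ppp1r3c from 0.36 to 0.70 and Eno3 from 0.21 to 0.60.

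Over all 6 arrays the sign turned for Hk1 (−0.09), Pfkl (−0.04), Pfkp (−0.20), Tpi1 (−0.04), Eno2 (−0.14), G6pc3 (−0.06), Got1 (−0.21), Mdh2 (−0.09), Pdk3 (−0.04) and Pgd (−0.10). With weights it turned for Pfkp (−0.07), Aldoc (−0.09), Pgk1 (−0.18), Pdk1 (0.01) and Bnip3 (0.04), and with quantile normalization or median centring for Pfkp (0.00). When 1 array was left out it turned for Aldoa (−0.15 to 0.04), Aldoc (−0.22 to 0.29), Bnip3 (−0.09 to 0.08), Ddit4 (−0.20 to 0.10), Ldha (−0.11 to 0.09), Mdh2 (−0.06 to 0.35), P4ha1 (−0.14 to 0.01), Pdk1 (−0.21 to 0.08), Pfkl (−0.02 to 0.09), Pfkm (−0.08 to 0.04), Pfkp (−0.12 to 0.13), Pgk1 (−0.38 to 0.41) and Slc16a3 (−0.20 to 0.06). The cause was not tested.

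Whether the replicate numbers pair the samples was not settled. Deviations from the group mean of samples with the same number correlated at −0.107, −0.0363 and 0.0148 over genes. Those of samples with different numbers correlated at −0.0190 to 0.0900. The OVA mean included OVA 2, which stood apart, so a shared preparation might not show. With the replicate number as a block in the 5 arrays, the count at an unadjusted p under 0.01 was 493 (351 higher) and at an FDR under 0.25 it was 38, Egln3 differed by 1.64 and Fbp1 by 2.41, and Pfkl (−0.02), Pgk1 (−0.05) and Bnip3 (0.05) turned sign. With the replicate block in all 6 arrays the counts were 186 (81 higher) and 2, the median of the other 31 members was −0.10, Egln3 differed by 1.30 and Fbp1 by 1.87, and the sign turned for the same 10 genes as without the block. The differences with the block are fixed by the design. Without OVA 2, PBS 2 is alone in its block, so each difference equals the one without PBS 2. Over all 6 arrays each equals the one without the block.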
